A study of Zea mays with 4 samples.

Results

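The genes described here make, break down or relay cytokinin in maize endosperm, the tissue that stores starch and protein in the kernel. They were found by the wording of the protein descriptions in the deposited tables. A description had to name cytokinin, a response regulator, a histidine-containing phosphotransfer protein or an isopentenyltransferase, and those of glucosyltransferases were left out. This gave 37 of the 34567 genes listed in any library. RNA was sequenced from wild-type endosperm and from endosperm of kernels labelled dek or mutant, both at 10 days after pollination. Each genotype had 2 libraries, called A and B after their titles, and each library was a pool of 8 to 10 individuals. The source given for each was 2 segregating ears. The labels name neither the mutated gene nor the inbred background, so the genotype could not be checked against its own transcript. The labels do not say whether each pool drew on both ears or whether pools shared an ear, and the p-values refer to the spread between pools.

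Cytokinins are adenine-derived hormones that promote cell division, and cereal endosperm passes through a phase of high cytokinin early in grain growth. Isopentenyltransferases carry out the first step of their synthesis, and cytokinin oxidases, also called cytokinin dehydrogenases, cut off the side chain and so inactivate them. The signal runs from histidine kinase receptors to phosphotransfer proteins, which carry a phosphate to response regulators in the nucleus. Type-B regulators are transcription factors, among whose best known targets are the type-A regulator genes, and type-A proteins damp the signal. Pseudo-response regulators belong to the circadian clock. They matched by wording and are kept apart here.

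Estimated counts summed to 13119658 to 14776699 per library. Alpha-zeins and other starchy endosperm markers, 29 genes in all, took 6.27% and 5.93% of all counts in wild-type pools A and B, against 0.541% and 0.877% in dek pools A and B, and all 27 that were tested fell. The 9 embryo markers took 0.1% and 0.111% in wild type, against 0.0342% and 0.0302% in dek, where 6 of them fell. Photosynthetic markers of maternal tissue, 18 genes, took 0.00106% to 0.00139% in every library. The 5 aleurone markers took 0.0485% to 0.0541%. The 4 markers of the embryo-surrounding region took 0.00687% and 0.00131% in wild-type pools A and B, against 0.00964% and 0.0104% in dek pools A and B. Wild type B stood apart in the 16 basal transfer layer markers, genes of the cell layer through which nutrients enter from the maternal side. These took 0.265% of counts in wild type A and 0.0687% in wild type B, against 0.743% in dek A and 0.463% in dek B, with each of the 16 above 0 in every library. All 16 were tested, and only 3 passed as higher in dek. In bulk tissue, fewer cells of a type and less RNA per cell cannot be told apart. Where leaving out a library changed a call of a named member, the value without it is given.

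The comparison asked how these genes differ between mutant and wild-type endosperm. The phosphotransfer genes HP1 and HP3 and the type-B regulator gene GRMZM2G133262 were higher in dek, by 2.65-fold, 4.65-fold and 19.0-fold. Smaller rises were seen for the ARR12-like type-B gene GRMZM2G360523 and the clock gene PRR1, and the cytokinin oxidase gene cko1 fell. Of the 37 genes, 28 passed the filter on low counts. At a Benjamini-Hochberg adjusted p under 0.05 in edgeR's quasi-likelihood test, 5 of the 28 were higher and 1 was lower in dek, while 22 did not pass. Over all 24624 genes tested, 16.8% passed, 7.98% as higher and 8.85% as lower, so the 6 members past it in either direction were near the rate of genes in general. Whether the split of 5 higher and 1 lower differs from that of all genes was not tested. At an unadjusted p under 0.05 in edgeR there were 13 of the 28 members, against 8428 of all 24624 genes tested. The median log2 fold change of the 28 was 0.11, with a range of -1.79 to 4.25, against 0.01 over all genes tested. Positive values were held by 15 and negative ones by 13. Leaving out the 3 clock genes left 25 tested members, 4 higher and 1 lower, with a median of 0.15.

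Levels are given in FPKM, that is, fragments scaled to gene length and to the library's counted fragments, so they can be compared between genes. Fold changes are given on the scale of TMM, a normalization that assumes most genes do not change, and lie a median of 0.307 on the log2 scale below fold changes scaled to library totals, as FPKM is. The FPKM values of both dek libraries lay above both wild-type libraries for 13 of the 28 tested members, where 51.1% of all tested genes did so. They lay below for 6, against 17.0% of all tested genes, and overlapped for 9. On TMM-scaled CPM, counts relative to library size, dek lay above for 10 members and below for 10, against 32.9% and 31.5% of all tested genes.

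**Figure D1:**
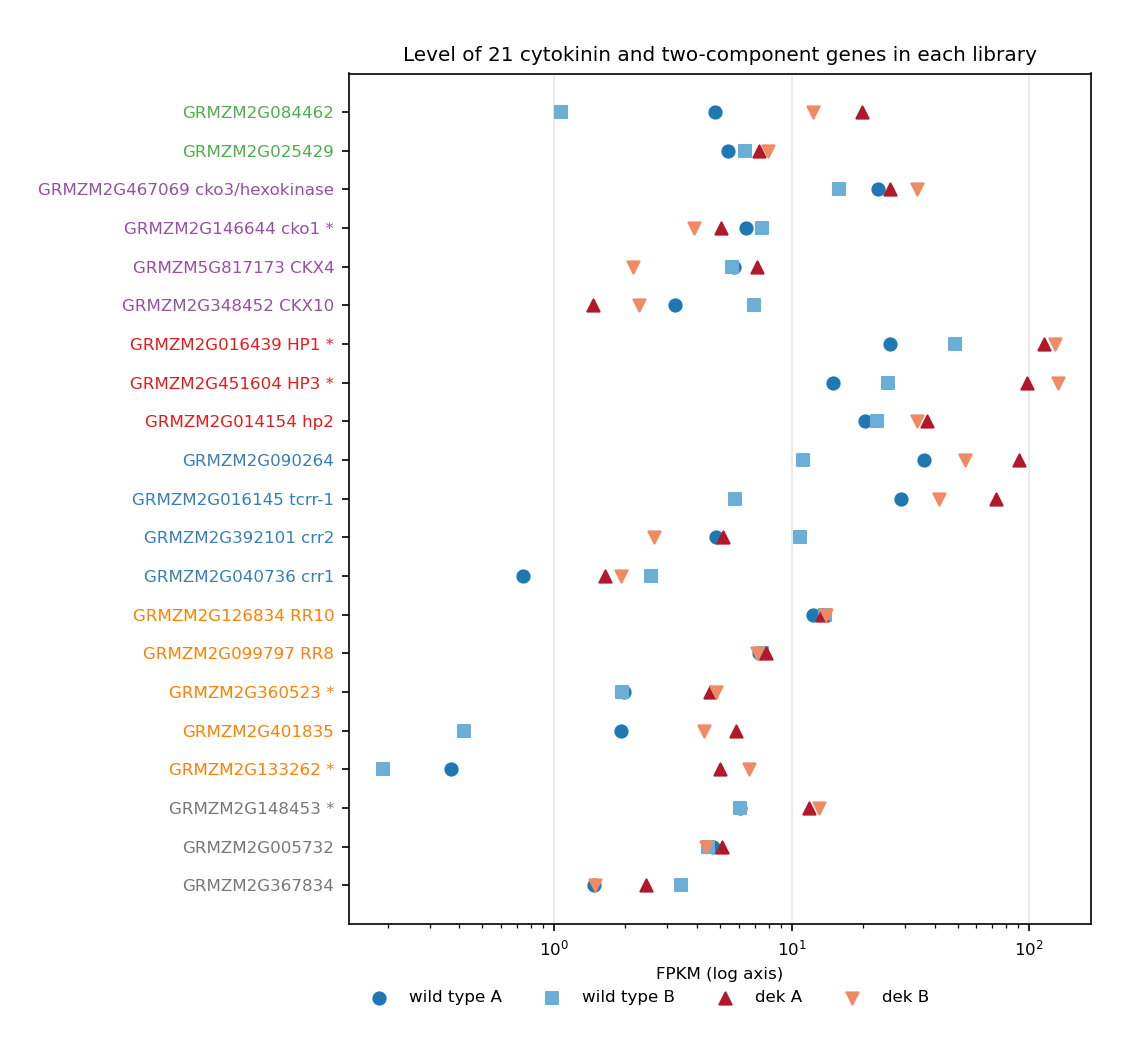
FPKM on a log axis in each of the 4 libraries for the 21 members named by rule, coloured by role from synthesis at the top to clock genes at the bottom, with a star on those past the threshold. HP1 and HP3 in dek, at 98.0 to 132 FPKM, are the highest points, and GRMZM2G133262 has the widest gap between genotypes.

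The 3 phosphotransfer genes had the highest summed level of any role in wild type B and in both dek libraries, and type-A regulators in wild type A. Phosphotransfer FPKM summed to 61.3 and 96.9 in wild-type pools A and B, against 250 and 293 in dek pools A and B. HP3 (GRMZM2G451604), which shuttles phosphate from receptors towards response regulators, stood at 14.9 and 25.4 FPKM in wild-type pools A and B, against 98.0 and 132 in dek pools A and B. Both dek libraries were several times as high as either wild-type library. HP3 rose by 2.22 ± 0.289 on the log2 scale (± SE), with an adjusted p of 0.00974 (edgeR quasi-likelihood, Benjamini-Hochberg). HP1 (GRMZM2G016439), a protein of the same family, had 26.0 and 48.7 FPKM in wild type, against 115 and 128 in dek. The groups did not overlap, and, as for HP3, wild type B was higher than wild type A. HP1 rose by 1.40 ± 0.290, with an edgeR adjusted p of 0.0295. The HP1 call was lost without dek A (edgeR adjusted p = 0.101) or dek B (0.122), while HP3 passed without any 1 library.

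The third phosphotransfer gene, hp2 (GRMZM2G014154), had 20.4 and 22.8 FPKM in wild type, against 37.0 and 33.7 in dek. The pools of each genotype were close together and did not overlap, but on the TMM scale the log2 fold change of 0.42 ± 0.134 did not pass (edgeR adjusted p = 0.085). Scaled to library totals alone it was 0.73, with an edgeR adjusted p of 0.0201, and on log2 FPKM with a pseudocount of 1 it was 0.69, with a limma adjusted p of 0.0182. The makeup of the family differed between genotypes. Of the summed phosphotransfer FPKM, hp2 made up 33.2% and 23.5% in wild-type pools A and B, against 14.8% and 11.5% in dek. HP3 made up 24.3% and 26.2% in wild type, against 39.2% and 44.8% in dek. HP1 stayed between 42.4% and 50.2% in all 4 libraries.

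Synthesis was represented by 3 isopentenyltransferase genes, which attach the isoprenoid side chain to adenine nucleotides. Their summed FPKM was 10.2 and 7.61 in wild-type pools A and B, against 27.2 and 20.9 in dek. The chloroplastic-like isopentenyltransferase 5 gene (GRMZM2G084462) had 4.78 and 1.07 FPKM in wild-type pools A and B, against 19.8 and 12.3 in dek. These values rest on 79 and 16 counts in wild type, against 333 and 206 in dek. The dek pools lay above both wild-type pools, which themselves differed widely. Its log2 fold change of 2.13 ± 0.625 did not pass in edgeR (adjusted p = 0.07), but the DESeq2 Wald test called it (adjusted p = 0.00891). Without wild type A it was 3.59 and passed in edgeR (adjusted p = 0.00403), and without wild type B it was 1.43 (adjusted p = 0.0503).

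The other tested synthesis gene, GRMZM2G025429, gave no such gap, with 5.40 and 6.39 FPKM in wild type, against 7.32 and 7.93 in dek. Its log2 fold change was 0.07 ± 0.193 (edgeR adjusted p = 0.832), and it was -0.05 without wild type A and -0.03 without dek B. This gene held 84.0% of the summed synthesis FPKM in wild type B and 53.0% in wild type A, against 26.9% and 38.0% in dek A and B. The third gene, GRMZM2G393014, had 0 to 10 counts per library and was not tested. On the TMM scale no synthesis gene passed in edgeR, where 1 had an unadjusted p under 0.05. The DESeq2 Wald test, limma and edgeR with library totals alone (2.44, adjusted p = 0.0416) each called 1 as higher, GRMZM2G084462.

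Degradation was represented by 11 cytokinin oxidase genes, of which 7 were tested and 1 was lower. Their summed FPKM was nearly flat, at 43.0 and 39.3 in wild type, against 42.6 and 46.0 in dek. The cytokinin oxidase 1 gene cko1, also named ckx1 (GRMZM2G146644), had 6.45 and 7.48 FPKM in wild type, against 5.05 and 3.89 in dek. Both dek libraries were below both wild-type libraries by a modest margin. It fell by 0.95 ± 0.224 on the log2 scale, or 1.93-fold, with an edgeR adjusted p of 0.041. The call was lost with library totals alone (-0.64, edgeR adjusted p = 0.0981) and in limma on log2 FPKM (-0.55, adjusted p = 0.104). It was also lost in edgeR without wild type B (adjusted p = 0.11), dek A (0.117) or dek B (0.17).

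CKX10 (GRMZM2G348452) had 3.22 and 6.96 FPKM in wild type, against 1.46 and 2.29 in dek. Dek was lower in both pools, and the lower wild-type pool was A. The log2 fold change of -1.59 ± 0.414 missed the threshold in edgeR (adjusted p = 0.0523) and passed in the DESeq2 Wald test (adjusted p = 0.0222) and in edgeR with a filter of 50 counts (-1.57, adjusted p = 0.0475). In edgeR it was -2.01 without wild type A (adjusted p = 0.0123) and -1.01 without wild type B (0.166). CKX12 (GRMZM2G008792) was also lower in both dek pools, with 3.42 and 2.26 FPKM in wild type, against 1.84 and 1.74 in dek, and a log2 fold change of -0.92 that did not pass (edgeR adjusted p = 0.158).

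The oxidase gene model with the highest FPKM, GRMZM2G467069, has a description that names both a cytokinin oxidase 3 precursor and a hexokinase-3-like protein, so reads of these genes cannot be told apart in it. It had 23.0 and 15.8 FPKM in wild type, against 26.0 and 33.7 in dek (log2 fold change 0.35 ± 0.230, edgeR adjusted p = 0.341). It made up 40.3% to 73.4% of the summed oxidase FPKM, so that sum says little about the other 10 genes. A separate model of cko3, GRMZM2G167220, stood at 0.63 to 1.12 FPKM. CKX4 (GRMZM5G817173) had 5.72 and 5.64 FPKM in wild type, against 7.13 and 2.16 in dek. Its dek pools lay on either side of wild type, and the log2 fold change of -0.36 ± 0.606 (edgeR adjusted p = 0.716) was 0.30 without dek B. cko2 (GRMZM2G050997) stood at 0.20 to 0.66 FPKM, and the 4 untested oxidase genes held at most 8 counts in any library. Of these, GRMZM2G114427 and GRMZM2G134634 both matched CKX8 and had 0.5 estimated counts each in wild type A and none elsewhere.

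**Figure D2:**
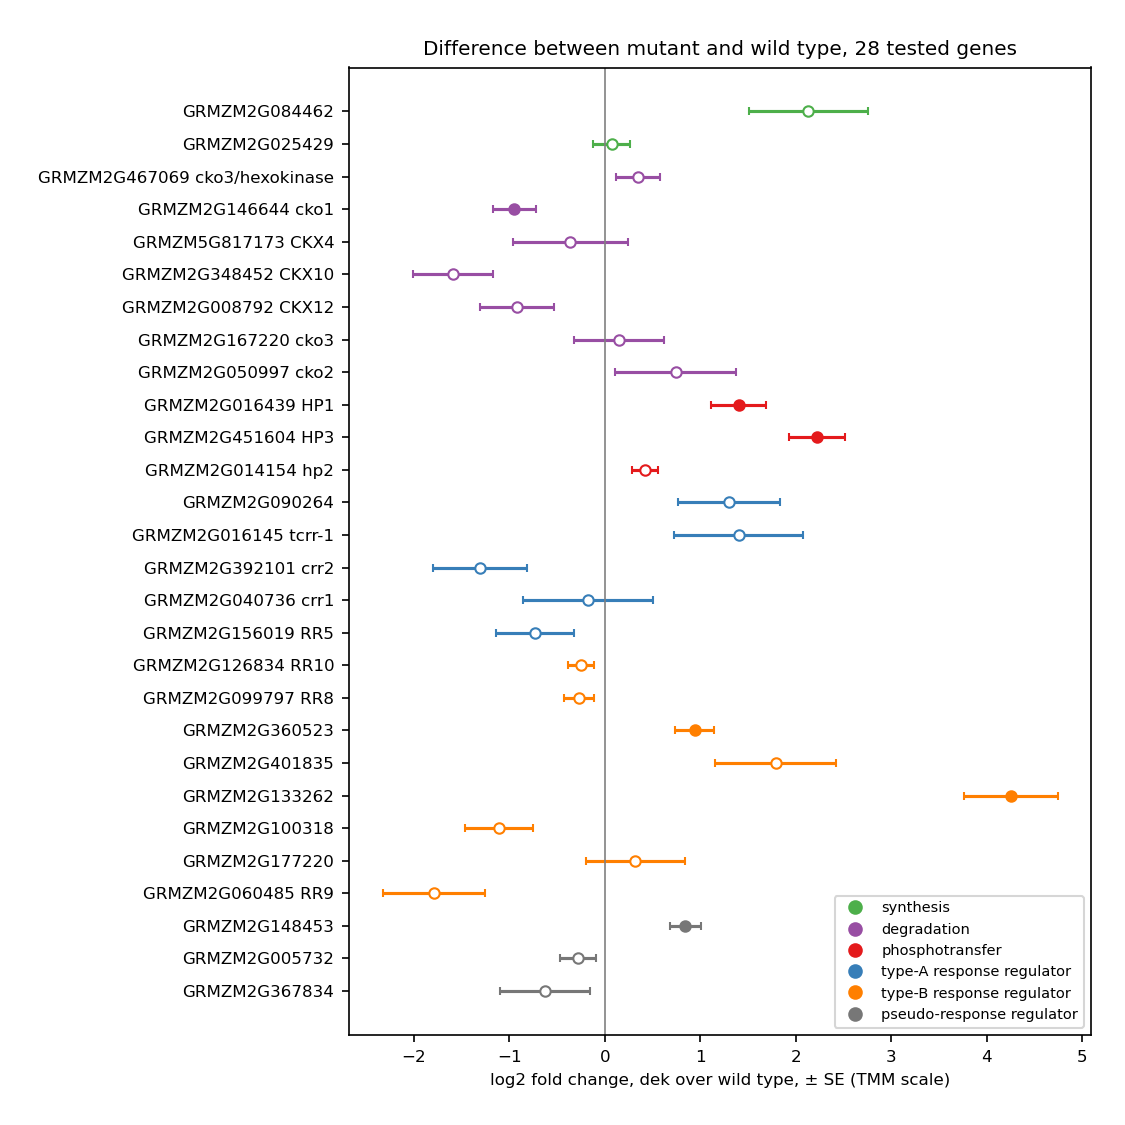
Log2 fold change of dek over wild type, with ± SE bars, for the 28 tested members in edgeR's fit on the TMM scale, coloured by role and filled where the adjusted p was under 0.05. All 3 phosphotransfer genes lie above 0, while oxidases and type-A and type-B regulators lie on both sides of it.

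Type-B response regulators, the transcription factors of the pathway, numbered 9, of which 8 were tested and 2 were higher. GRMZM2G133262, placed among type-B regulators by the deposited KEGG assignment, had 0.37 and 0.19 FPKM in wild-type pools A and B, against 4.99 and 6.62 in dek. That is 14 and 4 counts in wild type against 194 and 256 in dek, the widest gap of any tested member. It rose by 4.25 ± 0.489 on the log2 scale, with an edgeR adjusted p of 0.00701, and passed without any 1 library, at 3.67 to 5.31. Its level in dek remained far below those of HP1 and HP3. On log2 FPKM with a pseudocount of 1 its difference was 2.40 (limma adjusted p = 0.00442), a scale that shrinks the change of low genes.

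The ARR12-like gene GRMZM2G360523, named for its Arabidopsis relative, had 1.97 and 1.93 FPKM in wild type, against 4.54 and 4.82 in dek. The pools of each genotype were nearly alike. It rose 1.92-fold, or 0.94 ± 0.206 on the log2 scale, with an edgeR adjusted p of 0.0333. The call was lost without any 1 library, at edgeR adjusted p of 0.0662 to 0.17, while the log2 value stayed between 0.85 and 1.0.

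The ARR10-like gene GRMZM2G401835 had 1.91 and 0.42 FPKM in wild-type pools A and B, against 5.82 and 4.28 in dek. Dek was above both wild-type pools, and wild type B was far below wild type A. The log2 fold change of 1.79 ± 0.633 did not pass (edgeR adjusted p = 0.107), was 3.29 without wild type A (0.00558) and 1.09 without wild type B (0.0957). Limma on log2 FPKM called it as higher (1.56, adjusted p = 0.0369). A second ARR10-like gene, GRMZM2G013612, had no counts in wild type, against 14 and 9 in dek, which is at least 5.8-fold higher when the wild-type pools together are set to the floor of 3 counts. It was too low to be tested.

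RR10 (GRMZM2G126834) had the highest level among type-B genes and was nearly the same in every library, at 12.3 and 13.9 FPKM in wild type, against 13.5 and 13.9 in dek. RR8 (GRMZM2G099797) was next and as even, at 7.29 and 7.52 FPKM in wild type, against 7.84 and 7.15 in dek. On the TMM scale their log2 fold changes were -0.25 ± 0.136 (edgeR adjusted p = 0.26) and -0.27 ± 0.153 (0.264), while library totals gave 0.06 and 0.03. RR9 (GRMZM2G060485) had 1.12 and 0.88 FPKM in wild type, against 0.46 and 0.25 in dek, with a log2 fold change of -1.79 ± 0.538 (edgeR adjusted p = 0.0744). GRMZM2G100318 had 1.59 and 1.80 FPKM in wild type, against 0.98 and 0.97 in dek (-1.11 ± 0.358, edgeR adjusted p = 0.088). Both lay below wild type in each dek pool without passing. GRMZM2G177220 stood at 0.54 to 1.14 FPKM and overlapped. Summed over the role, type-B FPKM was 27.1 and 27.2 in wild type, against 40.0 and 39.1 in dek.

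Type-A regulators, the feedback arm, numbered 8, of which 5 were tested. None passed in edgeR, in DESeq2 or in limma, and 1 had an unadjusted p under 0.05 in edgeR. The gene tcrr-1 (GRMZM2G016145), a response regulator known from maize transfer cells, had 28.8 and 5.77 FPKM in wild-type pools A and B, against 72.5 and 41.7 in dek pools A and B. The dek pools were above both wild-type pools, but the ratio between the wild-type pools was larger than that between wild type A and dek A. Its log2 fold change was 1.40 ± 0.675 (edgeR adjusted p = 0.201). It was 3.0 without wild type A (adjusted p = 0.00561) and 0.67 without wild type B (0.241).

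The ARR3-like gene GRMZM2G090264 followed the same order of libraries, with 36.0 and 11.1 FPKM in wild-type pools A and B, against 90.4 and 53.8 in dek pools A and B. Its log2 fold change was 1.30 ± 0.533 (edgeR adjusted p = 0.149). Without wild type A it was 2.39 (adjusted p = 0.00831), and without wild type B 0.69 (0.208). It held 49.0% and 34.5% of the summed type-A FPKM in wild-type pools A and B, and tcrr-1 held 39.3% and 17.9%.

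crr2 (GRMZM2G392101), also a feedback regulator, was highest in wild type B, with 4.82 and 10.8 FPKM in wild-type pools A and B, against 5.15 and 2.65 in dek. Dek A lay within the wild-type range of FPKM, so the groups overlapped on that scale, while on TMM-scaled CPM both dek pools lay below. The log2 fold change was -1.31 ± 0.491 (edgeR adjusted p = 0.123), -1.78 without wild type A (0.0296) and -0.62 without wild type B (0.421). crr1 (GRMZM2G040736) had 0.74 and 2.57 FPKM in wild type, against 1.64 and 1.92 in dek, with a log2 fold change of -0.18 ± 0.679 (edgeR adjusted p = 0.875) that was 0.12 with library totals and 0.94 without wild type B. RR5, also named crr5 (GRMZM2G156019), stood at 1.70 and 1.53 FPKM in wild type, against 1.08 and 1.32 in dek, and the 3 untested type-A genes held at most 13 counts in any library.

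Of the 3 clock genes 1 was higher and the others did not pass. PRR1 (GRMZM2G148453), a relative of the Arabidopsis clock gene TOC1, had 6.07 FPKM in both wild-type pools and 11.8 and 13.1 in dek. It rose 1.79-fold, or 0.84 ± 0.162 on the log2 scale, with an edgeR adjusted p of 0.0253. The call was lost without wild type B (adjusted p = 0.077), dek A (0.101) or dek B (0.14). PRR37 (GRMZM2G005732) had 4.65 and 4.47 FPKM in wild type, against 5.08 and 4.36 in dek. Its log2 fold change was -0.28 ± 0.185 (edgeR adjusted p = 0.335), and 0.03 with library totals. PRR95 (GRMZM2G367834) had 1.48 and 3.44 FPKM in wild type, against 2.43 and 1.49 in dek, so its groups overlapped (-0.63 ± 0.473, edgeR adjusted p = 0.397, and 0.09 without wild type B). The labels give no time of day for the sampling.

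Since wild type B held few transfer layer transcripts, the members were set beside the summed counts of the 16 transfer layer markers. The markers ran in the order dek A, dek B, wild type A, wild type B from high to low, and 14 of the 16 marker genes did so singly. Of all tested genes 13.5% had this order of FPKM, and 4 of the 28 tested members, a similar share, did. These were tcrr-1, the ARR3-like gene GRMZM2G090264, the ARR10-like gene GRMZM2G401835 and the isopentenyltransferase gene GRMZM2G084462, and they were picked out for the following values after their levels were seen. Per 1000 marker counts, tcrr-1 had 6.89 and 5.33 counts in wild-type pools A and B, against 6.21 and 5.72 in dek pools A and B. Its highest value was 1.29 times its lowest, where its FPKM spanned 12.6-fold. The same ratio ran from 1.13 to 10.4 among the markers themselves, with a median of 1.61. For genes picked by their order of libraries a low ratio follows in part from that choice.

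The ARR3-like gene had 7.70, 9.21, 6.93 and 6.62 counts per 1000 marker counts in wild type A, wild type B, dek A and dek B. The ARR10-like gene had 1.45, 1.22, 1.58 and 1.86 in the same order. The isopentenyltransferase gene had 2.05 and 1.78 in wild type, against 3.03 and 3.02 in dek. Set against the markers, the ARR3-like gene was slightly lower in both dek pools than in wild type, the ARR10-like and isopentenyltransferase genes were higher in both, and tcrr-1 overlapped. HP1 and HP3 did not share this order. HP1 had 9.93, 71.8, 15.7 and 28.1 counts per 1000 marker counts, and HP3 had 6.71, 44.0, 15.8 and 34. Both had more FPKM in wild type B than in wild type A, the opposite of the markers. GRMZM2G133262 had 0.363 and 0.444 in wild type, against 1.77 and 3.76 in dek. The part of transfer layer content in any of these differences was not tested.

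**Figure D3:**
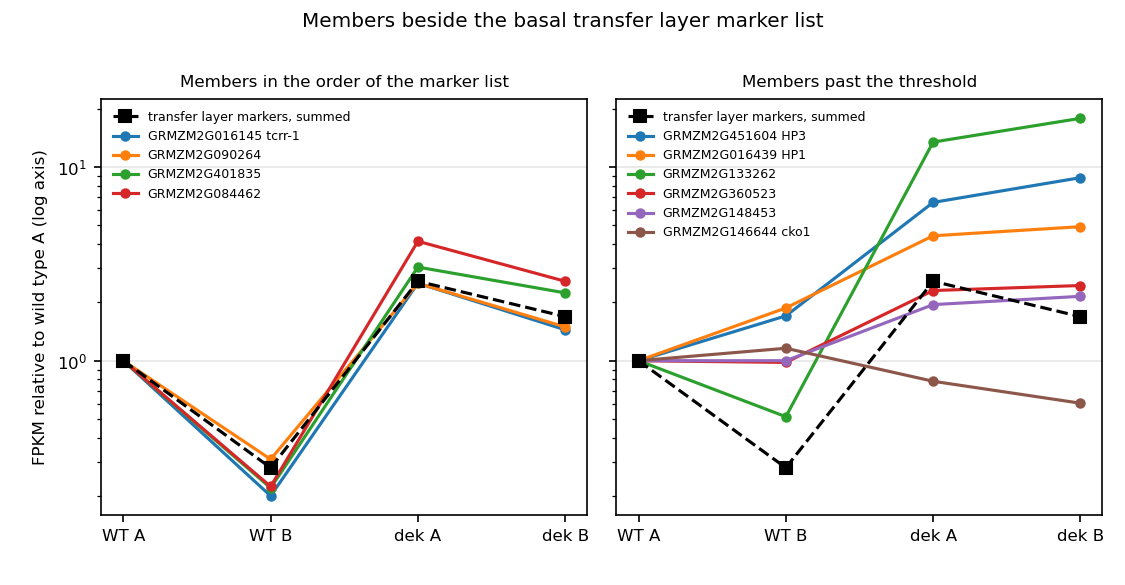
FPKM of members relative to wild type A on a log axis, across the 4 libraries, beside the summed FPKM of the 16 basal transfer layer markers (dashed line with squares). The 4 genes on the left were picked for having the library order of the markers, so their dip in wild type B follows from that choice. HP1 and HP3 on the right, picked by the threshold, are higher in wild type B than in wild type A.

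Genes next to these in the pathway were taken from a list of descriptions, 36 genes of which 24 were tested. Of these 4 were higher and 4 lower, against 7.98% and 8.85% of all tested genes, with a median log2 fold change of -0.19. Of 9 histidine kinase genes, the family that holds the cytokinin receptors, 7 were tested, and edgeR on the TMM scale and limma called none of them, with 2 at an unadjusted p under 0.05 in each. The DESeq2 Wald test called 1 as lower, and edgeR with library totals alone called 1 as higher. The receptor gene hk3 (GRMZM2G158252) had 4.13 and 8.64 FPKM in wild type, against 3.75 and 2.05 in dek, with a log2 fold change of -1.14 ± 0.342 (edgeR adjusted p = 0.0743). HK1 (GRMZM2G151223) had 4.88 and 5.80 FPKM in wild type, against 10.1 and 6.91 in dek (0.37 ± 0.209, edgeR adjusted p = 0.266). hk2 (GRMZM2G471529) overlapped in FPKM, at 3.34 and 2.80 in wild type, against 3.10 and 2.51 in dek (-0.44 ± 0.204, edgeR adjusted p = 0.187).

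Glucosyltransferases that store cytokinin as glucosides changed in both directions, with 1 of 9 tested genes higher and 2 lower. A cis-zeatin O-glucosyltransferase gene (GRMZM2G120016) had 0.81 and 1.20 FPKM in wild type, against 15.2 and 24.2 in dek. It rose by 3.99 ± 0.356 on the log2 scale (edgeR adjusted p = 0.00389). A cytokinin-O-glucosyltransferase 3 gene (GRMZM5G854655) had 15.7 and 25.8 FPKM in wild type, against 3.19 and 3.11 in dek. It fell by 3.02 ± 0.273 (edgeR adjusted p = 0.00405), and both calls held without any 1 library. Of this pair, the lower gene in wild type was the higher one in dek. ciszog1 (GRMZM2G168474), whose enzyme glucosylates cis-zeatin, had 5.13 and 7.73 FPKM in wild type, against 2.08 and 2.30 in dek. It fell by 1.82 ± 0.287 (edgeR adjusted p = 0.0151), a call that needed both dek pools.

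Purine salvage enzymes, which also convert cytokinin bases and ribosides to nucleotides, differed within families. An adenosine kinase 2-like gene (GRMZM2G135132) had 35.5 and 42.2 FPKM in wild type, against 109 and 96.2 in dek, and rose by 1.10 ± 0.137 (edgeR adjusted p = 0.00892). The more abundant adenosine kinase 2 gene GRMZM2G540538 stood at 256 and 258 FPKM in wild type, against 314 and 305 in dek. On the TMM scale it was 1.02-fold lower in dek and did not pass. The adenine phosphoribosyltransferase 2 gene GRMZM2G071846 had 111 and 104 FPKM in wild type, against 49.7 and 55.5 in dek and fell by 1.34 ± 0.130 (edgeR adjusted p = 0.00478). An adenine phosphoribosyltransferase 1 gene (GRMZM2G093347) had 191 and 204 FPKM in wild type, against 404 and 463 in dek and rose by 0.83 ± 0.133 (adjusted p = 0.0157). The former call held without any 1 library, while the adenosine kinase call was lost without dek A and the latter without dek B. A further gene of this family, apt1 (GRMZM2G170101), fell by 0.91 ± 0.208 (edgeR adjusted p = 0.0374), a call lost with library totals and without any 1 library.

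Of 5 purine permease genes, a family with members that carry adenine and cytokinins, 1 was tested. GRMZM2G069016 had 26.4 and 20.8 FPKM in wild type, against 53.7 and 52.6 in dek and rose 1.82-fold (edgeR adjusted p = 0.0206), a call that also needed both dek pools. Among deposited KEGG assignments, those for oxidases, isopentenyltransferases, phosphotransfer proteins and type-A regulators were searched, and not those for type-B or pseudo-response regulators. The assignments searched name 13 more genes that the description rule missed. This list was added after the tables were seen. Of these 6 were tested, and none passed in edgeR, DESeq2 or limma, with 0, 1 and 1 at an unadjusted p under 0.05. Among them the type-A regulator RR6 (GRMZM2G129954) had 0.84 and 3.31 FPKM in wild type, against 0.78 and 0.05 in dek, lower in both dek pools on few counts. RR4 (GRMZM2G319187) had 3.01 and 3.65 FPKM in wild type, against 5.68 and 4.32 in dek, a 1.21-fold difference on the TMM scale.

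How far each call rests on the settings differed between members. HP3 and GRMZM2G133262 passed in all 7 other settings of scaling, test, filter and design and without each of the 4 libraries. HP1 passed in all 7 and without either wild-type library. Of the 6 members past the threshold, 5 remained without wild type A, 3 without wild type B and 2 each without dek A or dek B. Fits without wild type A had wild type B as their only wild-type pool, the one low in transfer layer transcripts. Any further member called there rests on that pool for its wild-type level.

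**Figure D4:**
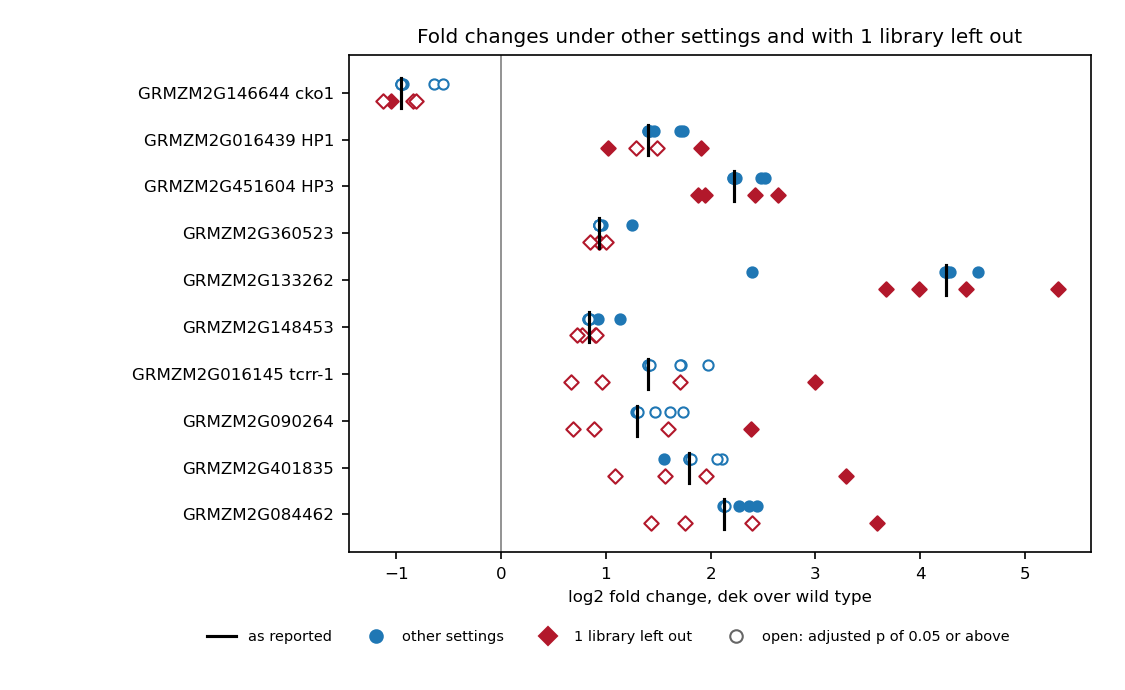
Log2 fold change of dek over wild type for the 6 members past the threshold and the 4 genes in the order of the transfer layer markers, as reported (bar), under 7 other settings (circles) and with 1 library left out (diamonds). Open symbols have an adjusted p of 0.05 or above. Without wild type A the 4 lowest genes stand at log2 values from 2.39 to 3.59. They were picked by an order in which wild type B is lowest, so larger values there follow in part from that choice.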

How the data were processed

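RNA-seq tables of 4 libraries were used. Per the file headers, the authors deposited for each gene its length, an expected count and its FPKM. The deposited expected counts are RSEM-style estimated counts without further normalization, and the authors scaled the FPKM values to gene length and counted fragments. HISAT, Bowtie2, RSEM and GATK are named in the submitters' processing notes, and the sources used here give neither genome build nor strandedness. Genes absent from one library's table were set to 0 there. No genome or sequence matched to these gene models was used, so no sequence, position or promoter motif is given.

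Roles came from the deposited descriptions and, for type-A, type-B and pseudo-response regulators, the deposited KEGG assignments. RefSeq names (Zm-B73-REFERENCE-NAM-5.0 table) were matched by model identifier for 24 members and by protein accession for 12, and 1 was unmatched. Markers were taken by name and description.

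Estimated counts were rounded and tested with edgeR 4.0.16 in R 4.3.3 by its quasi-likelihood test, two-sided, after filterByExpr (24624 genes) and TMM (factors 0.895, 0.903, 1.13 and 1.1 in the order wild type A, wild type B, dek A, dek B). P-values were adjusted by Benjamini-Hochberg over all genes tested, with a threshold of 0.05. The biological coefficient of variation was 0.226. Each SE was derived from the test, as the absolute log2 fold change over the square root of its F statistic. Alternatives were DESeq2 1.42.0 size factors and Wald test, library totals, limma 3.58.1 on log2(FPKM + 1), where the log2 values were computed from FPKM as deposited, no filter, 50 counts in 2 libraries, a replicate block, and each library left out. With a library left out, the lone pool is assumed to vary like the pools of the other genotype. The code was tested on simulated data with the same number of libraries, in which 24424 of 24624 genes were left unchanged. In the real data 4143 genes passed, so the simulated rates of calling need not hold there. In the simulation edgeR called 0 of 50 genes changed 1.5-fold, 6 of 50 changed 2-fold and 39 of 50 changed 4-fold. A difference of 2-fold or less that did not pass is therefore not shown to be absent. Named members were all those past the threshold and the 4 tested members of each role with the highest mean FPKM. Any other member was named with its values in view. The members and lists were chosen with earlier results of these data known. A floor of 3 counts covers counting error only.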

Additional observations from a re-analysis of the deposited data

How the results depend on the processing

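Over all genes tested, 1965 were higher and 2178 lower in dek. With library totals alone these were 4502 and 1279, with limma on log2 FPKM 4483 and 1326, and with 1 library left out 281 to 1731 and 465 to 1966. Of the members, 5 were higher and 1 lower. With limma 8 were higher and 0 lower, with library totals 0 lower, with the DESeq2 Wald test 2 lower and with the filter of 50 counts 2 lower. With 1 library left out, 2 to 8 members were higher and 0 to 3 lower. The members' median of 0.11 was 0.41 with library totals, 0.36 with the filter of 50 counts and -0.06 to 0.22 with 1 library left out. With 1 library left out, 2 to 6 related genes were higher and 2 to 4 lower, and 1 to 2 phosphotransfer and 1 to 2 type-B genes were higher. The cause of these shifts was not tested, except that library totals moved all log2 fold changes up by a median of 0.307 and a fit with 1 library fewer has fewer samples.

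The titles share letters, but the ear of each pool is not stated, the descriptions number the pools differently, and the deviations of same-lettered pools correlated at -0.0218. Whether same-lettered pools share an ear or a batch is not known. The correlation cannot settle it, since each genotype gave only the difference between its A and B pools. No crossed pairing was run. A replicate block by that letter gave 811 higher and 1080 lower genes, 0 lower members and 1 higher type-B gene, and the calls of cko1, GRMZM2G360523 and PRR1 were lost (edgeR adjusted p = 0.096, 0.0856 and 0.0674). The block called 4 members as higher, GRMZM2G084462 being gained (2.37, adjusted p = 0.0492).

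Signs turned for 7 named members, none past the threshold in any of these fits. Log2 fold changes were -0.05 for GRMZM2G025429 without wild type A and -0.03 without dek B (range with 1 library left out -0.05 to 0.18), and 0.30 for CKX4 without dek B (range -1.72 to 0.30). They were 0.12 and 0.16 for crr1 with library totals and limma and 0.94 without wild type B (range -0.83 to 0.94). They were 0.06 and 0.06 for RR10, 0.03 and 0.01 for RR8 and 0.03 and 0.04 for PRR37 with library totals and limma, and 0.09 for PRR95 without wild type B (range -1.12 to 0.09). Members with under about 50 counts per library, among them crr1, RR9 and cko2, are limited by depth.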
